A study of Homo sapiens with 6 samples.

Results

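The MYC network genes are 10 transcription factor genes, *MYC*, *MAX*, *MXD1*, *MXD3*, *MXD4*, *MXI1*, *MNT*, *MLX*, *MLXIP* and *MGA*. They were chosen by name, from the gene symbols in the deposited tables, with earlier results of these data known. All 10 were among the 14646 genes counted and all 10 were among the 13791 genes tested. The cells were IGROV1, an established human ovarian cancer (OC) cell line that carries *PIK3CA* mutations. GDC0032 inhibits phosphatidylinositol 3-kinase (PI3K) and spares the beta isoform. IGROV1Res cells, labelled GDC0032-resistant, were derived from the parental line by long exposure to increasing GDC0032, and IGROV1Sen cells are the GDC0032-sensitive parental cells. Each group had 3 RNA sequencing libraries. All 6 titles carry the letters UT, which the labels do not spell out, and the labels name no drug in the medium at harvest. The study's methods describe GDC0032 or DMSO given to cells before RNA extraction, and which of these the libraries had is not spelled out. A single resistant line stood for resistance here. The labels do not say that the replicates were separate cultures, so p-values measure the spread between these libraries, which may be technical.

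Proteins of this network bind DNA as pairs, mostly at the E-box with the letters CACGTG. MYC pairs with MAX and activates genes of growth, ribosome assembly and metabolism. MXD1, MXD3, MXD4, MXI1 and MNT compete for MAX and bring the SIN3-HDAC corepressor to the same sites, while MLX pairs with MLXIP, a sensor of glucose metabolites, and MGA joins MAX in a Polycomb repressor complex. MYC protein is short-lived and is marked for destruction by kinases downstream of PI3K, a control that transcript counts do not see.

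The letters of the E-box can be seen before the start sites of some of the network's own genes. Promoters of 9 members, all but *MYC*, were matched in RefSeq (build GRCh38.p14), and the 250 bases before each start were searched for CACGTG, which reads the same on both strands. It was found at *MXD4*, *MNT* and *MLX*, that is, in 3 of the 14 promoters listed for these members, and in 2228 of 35116 promoters in the whole table (6.345%). Stretches around the match, without bases of annotated exons, are shown with CACGTG in capitals, 5′ to 3′ on the strand of the gene, for *MXD4* (chr4:2262312-2262359, minus strand), *MNT* (chr17:2401218-2401283, minus strand) and *MLX* (chr17:42567020-42567067, plus strand).
MXD4: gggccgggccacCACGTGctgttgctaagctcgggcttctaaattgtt
MNT: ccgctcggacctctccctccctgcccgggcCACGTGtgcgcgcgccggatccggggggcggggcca
MLX: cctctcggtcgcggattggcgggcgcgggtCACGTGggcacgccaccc

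Of these 3 genes, only *MXD4* passed the test between the groups. The other members that passed it, *MXD3* and *MXI1*, had no CACGTG in the same windows, and 100 bases before the *MXD3* start (chr5:177312758-177312857, minus strand) and before the upstream *MXI1* start (chr10:110207505-110207604, plus strand) are shown for comparison. A match is a string of letters and not a measured binding site.
MXD3: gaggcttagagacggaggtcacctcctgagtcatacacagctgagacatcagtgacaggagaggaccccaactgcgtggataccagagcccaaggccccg
MXI1: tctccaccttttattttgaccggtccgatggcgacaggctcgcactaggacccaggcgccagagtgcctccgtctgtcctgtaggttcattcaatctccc

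The libraries held 12808922 to 15241394 counts, and 3 counts, the limit that a count of 0 allows, corresponded to 0.198 to 0.236 CPM (counts scaled to the library total). The members had 168 to 4291 counts in a library, far above this limit. Mitochondrial genes took 6.94% of counts in IGROV1Res replicate 3 and 7.02% in IGROV1Sen replicate 1, against 10.1% to 12.8% in the other 4 libraries. IGROV1Sen replicates 2 and 3 differed little more than counting noise (chi-square per degree of freedom 1.47, against 11.9 to 32.7 for the other pairs within a group). The ovarian epithelial marker *PAX8* averaged 819 CPM in IGROV1Res and 832 CPM in IGROV1Sen, while *EPCAM* and *CDH1* were near 0, at 1.93 and 1.12 CPM in IGROV1Res and 0.729 and 0.611 CPM in IGROV1Sen. The summed level of all 6 epithelial markers was 2005 to 2404 CPM in IGROV1Res libraries and 1370 to 1516 CPM in IGROV1Sen libraries. None of 4 leukocyte markers was in the table, 2 of 3 endothelial markers summed to 175 to 178 CPM in IGROV1Res and 114 to 142 CPM in IGROV1Sen, and 3 of 4 fibroblast markers to 20.5 to 35.4 CPM in IGROV1Res and 7.60 to 10.2 CPM in IGROV1Sen. The part of these marker genes in the member results was not tested.

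Transcripts of 3 MXD family genes, *MXD3*, *MXI1* and *MXD4*, were lower in IGROV1Res than in IGROV1Sen cells, by 43.2%, 38.2% and 32.2%, while *MYC* and its partner *MAX* did not pass the test. In RNA from whole cultures, fewer cells that express a gene and less RNA per cell cannot be told apart. The test was edgeR's quasi-likelihood test, with p-values adjusted by Benjamini-Hochberg over all genes tested and a threshold of 0.05. By this rule 0 of the 10 members rose and 3 fell, and 7 were not called. At an unadjusted p under 0.05, 0 rose and 4 fell, and DESeq2 also called 0 up and 3 down. Among all genes tested, 17.4% rose and 18.3% fell, or 35.7% in either direction, so that the 3 of 10 members called was close to the share of other genes. For 7 members the 2 sets of libraries were separate, with IGROV1Res lower for 6 and higher for 1, against 47.8% of all genes tested (24.5% with IGROV1Res lower and 23.4% with IGROV1Res higher). The median log2 fold change, IGROV1Res over IGROV1Sen, was −0.18 over the members and −0.01 over all genes tested.

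**Figure D1:**
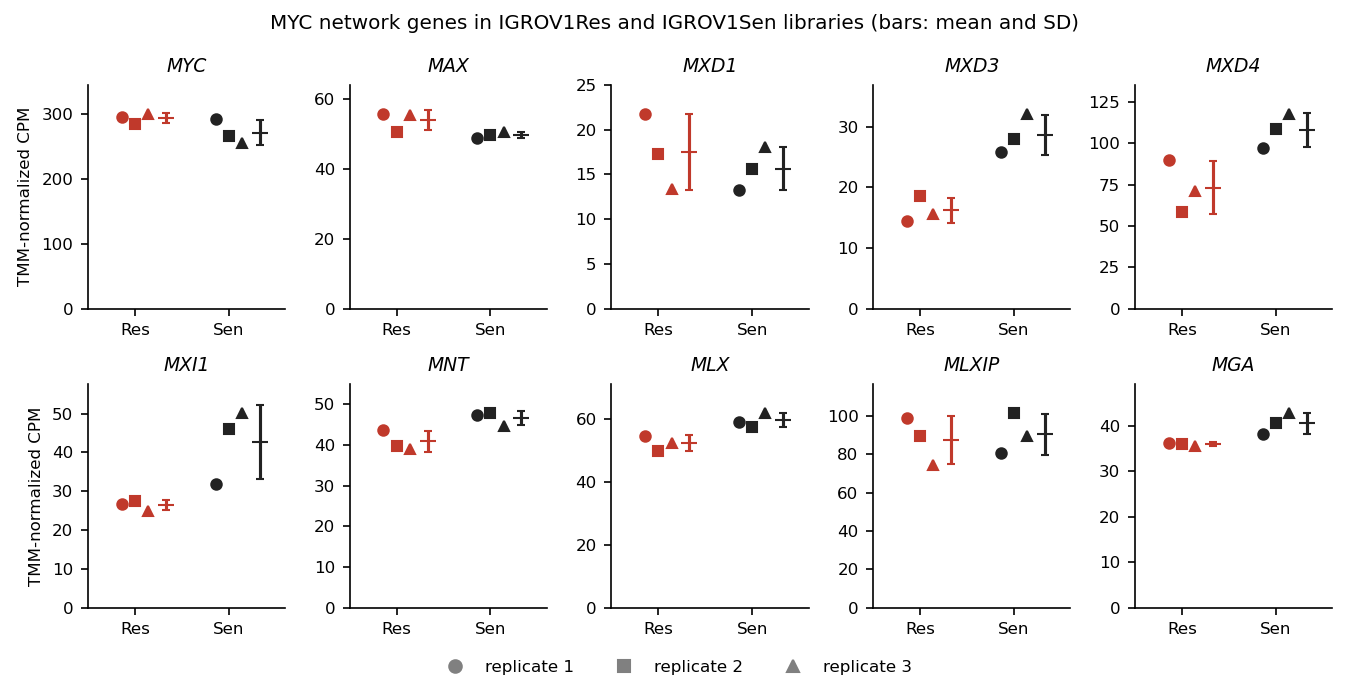
Expression of the 10 MYC network genes in each library, as TMM-normalized CPM on axes that start at 0, with IGROV1Res (red) left of IGROV1Sen (black), replicates 1, 2 and 3 as circles, squares and triangles, and the mean ± SD beside them (n = 3 each). *MXD3*, *MXD4* and *MXI1* points of IGROV1Res lie below all IGROV1Sen points, while *MYC*, *MXD1* and *MLXIP* overlap.

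*MYC*, the activator of the network, lies on chromosome 8. Its level was 296, 285 and 301 CPM in IGROV1Res replicates 1 to 3, against 292, 266 and 255 CPM in IGROV1Sen replicates 1 to 3. The groups overlapped, because IGROV1Sen replicate 1 lay above IGROV1Res replicate 2. The *MYC* means were 293.8 ± 8.19 CPM in IGROV1Res and 271.2 ± 19.0 CPM in IGROV1Sen (SD, n = 3 each). The log2 fold change was 0.12 (SE 0.08, 95% interval −0.07 to 0.30, edgeR adjusted p = 0.298), which corresponds to a ratio of 1.08 with bounds of 0.955 and 1.23. *MYC* was not called under any of the 18 other settings fitted, where its log2 fold change was 0.07 to 0.17. The largest of these came without IGROV1Sen replicate 1, 1 of the 2 libraries of low mitochondrial share (adjusted p = 0.0804), and without both of those libraries it was 0.16 (adjusted p = 0.0806).

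The genes around *MYC* were mostly higher in IGROV1Res. On chromosome 8, 228 of 456 genes tested rose (50%) and 30 fell, with a median log2 fold change of 0.39, so that *MYC* lay 0.27 below the median of its chromosome (−0.27 on the log2 scale). Within 5 Mb of *MYC*, 17 of 27 genes rose and 1 fell, and the median was 0.48. The nearest tested gene before *MYC*, *FAM84B*, averaged 685.5 ± 5.98 CPM in IGROV1Res and 289 ± 14.9 CPM in IGROV1Sen (log2 fold change 1.25, adjusted p = 5.29e-06). The nearest after it, *PVT1*, a long non-coding RNA gene, averaged 22.4 ± 5.43 CPM in IGROV1Res and 15.1 ± 0.871 CPM in IGROV1Sen (log2 fold change 0.57, adjusted p = 0.0261). The call of *PVT1* was lost without IGROV1Sen replicate 2 (adjusted p = 0.0727) or IGROV1Sen replicate 3 (adjusted p = 0.0558), and with the replicate number as a block (adjusted p = 0.0739). DNA copy number was not measured in these files.

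*MAX*, the partner that MYC and the MXD proteins share, was counted at 55.7, 50.6 and 55.2 CPM in IGROV1Res replicates 1 to 3, against 48.7, 49.5 and 50.4 CPM in IGROV1Sen replicates 1 to 3. IGROV1Res libraries were all higher, but IGROV1Res replicate 2 exceeded the highest IGROV1Sen library by little. The log2 fold change of *MAX* was 0.12 (SE 0.08, 95% interval −0.06 to 0.30, adjusted p = 0.276) and was not called. The ratio of *MYC* to *MAX*, as CPM per kb of merged exons, was 7.85, 8.31 and 8.04 in IGROV1Res and 8.86, 7.95 and 7.46 in IGROV1Sen, so the groups overlapped in this ratio too. The median of 452 chromosome 14 genes was −0.21, in the other direction.

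*MXD3* (chr5:177301461-177312757, minus strand), an antagonist of MYC that is known in proliferating cells, had the largest difference of the members. It had 14.5, 18.6 and 15.7 CPM in IGROV1Res replicates 1 to 3, against 25.8, 28.0 and 32.2 CPM in IGROV1Sen replicates 1 to 3. Every IGROV1Res library was below every IGROV1Sen library. *MXD3* had a log2 fold change of −0.82 (SE 0.13, 95% interval −1.11 to −0.52, adjusted p = 0.00127), a ratio of 0.568 with bounds of 0.462 and 0.697. It stayed between −0.92 and −0.73 and was called under all 18 other settings at the threshold of 0.05. The median of chromosome 5 was 0.14, in the other direction.

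Reads of *MXD3* may not all be its own. Its exons share 1158 bases with *PRELID1* on the opposite strand and 926 bases with *RAB24* on the same strand, and whether the counting used strand is not given in the sources used here, so reads in the shared bases cannot be told apart. *PRELID1*, a mitochondrial lipid transfer gene, rose (113 CPM in IGROV1Res and 77.5 CPM in IGROV1Sen, log2 fold change 0.54, adjusted p = 0.00989). *RAB24*, a RAB GTPase gene, had 11.2 CPM in IGROV1Res and 12.1 CPM in IGROV1Sen (log2 fold change −0.12, adjusted p = 0.628). Neither overlapping gene was called down, and the part of shared reads in the *MXD3* levels and fold change was not tested.

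*MXI1* (chr10:110207605-110287365, plus strand), also known as MXD2, was counted at 26.7, 27.5 and 25.0 CPM in IGROV1Res replicates 1 to 3, against 31.8, 46.0 and 50.2 CPM in IGROV1Sen replicates 1 to 3. The groups did not overlap, and IGROV1Sen replicate 1 was the lowest of its group and nearest to IGROV1Res. *MXI1* had a log2 fold change of −0.70 (SE 0.16, 95% interval −1.05 to −0.34, adjusted p = 0.00757), a ratio of 0.618. It was −0.86 without IGROV1Sen replicate 1 (adjusted p = 0.000128) and −0.83 without both libraries of low mitochondrial share (adjusted p = 0.000392). The difference was smaller without IGROV1Sen replicate 2 (−0.64, adjusted p = 0.0298) and smallest without IGROV1Sen replicate 3 (−0.56, adjusted p = 0.0325). *MXI1* was still called in both of these fits. Relative to *MAX*, the level of *MXI1* per kb was 0.461, 0.523 and 0.436 in IGROV1Res libraries, against 0.629, 0.895 and 0.956 in IGROV1Sen libraries. *ADD3*, an adducin gene of the membrane skeleton and the nearest tested gene before *MXI1*, also fell (105 ± 11.3 CPM in IGROV1Res and 241 ± 63.8 CPM in IGROV1Sen, log2 fold change −1.20, adjusted p = 0.000934). *SMNDC1*, the nearest after *MXI1*, measured −0.08 on the log2 scale (adjusted p = 0.453), and the chromosome 10 median was −0.17.

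*MXD4* (chr4:2247432-2262294, minus strand), the MXD gene with the highest counts, had 90.2, 58.3 and 71.2 CPM in IGROV1Res replicates 1 to 3, against 97.4, 109 and 118 CPM in IGROV1Sen replicates 1 to 3. The groups did not overlap, but IGROV1Res replicate 1 came close to IGROV1Sen replicate 1. The log2 fold change of *MXD4* was −0.56 (SE 0.15, 95% interval −0.89 to −0.23, adjusted p = 0.0158), a ratio of 0.678. The call was lost without IGROV1Sen replicate 3 (−0.49, adjusted p = 0.0592) or IGROV1Res replicate 2 (−0.42, adjusted p = 0.0548). The median of 470 chromosome 4 genes was −0.22, with 164 down and 44 up, so that *MXD4* lay 0.34 below it (−0.34 on the log2 scale).

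*MXD1*, the other MXD gene, which is known for its rise in differentiating cells, had 21.8, 17.3 and 13.3 CPM in IGROV1Res replicates 1 to 3, against 13.2, 15.6 and 18.01 CPM in IGROV1Sen replicates 1 to 3. The groups overlapped, and IGROV1Res replicate 1 was above all other libraries. *MXD1* exons share 237 bases with *SNRNP27* on the same strand, and reads in the shared bases cannot be told apart. *SNRNP27* had 28.0 CPM in IGROV1Res and 23.8 CPM in IGROV1Sen and was not called (log2 fold change 0.23, edgeR adjusted p = 0.0966). The log2 fold change of *MXD1* was 0.16 (SE 0.19, 95% interval −0.27 to 0.59, adjusted p = 0.547), and without IGROV1Res replicate 1 it was −0.03. Its interval did not reach the fold changes measured for *MXD3*, *MXI1* or *MXD4*, but it overlapped the 95% interval of *MXD4* (−0.89 to −0.23). A difference between these genes was not tested.

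**Figure D2:**
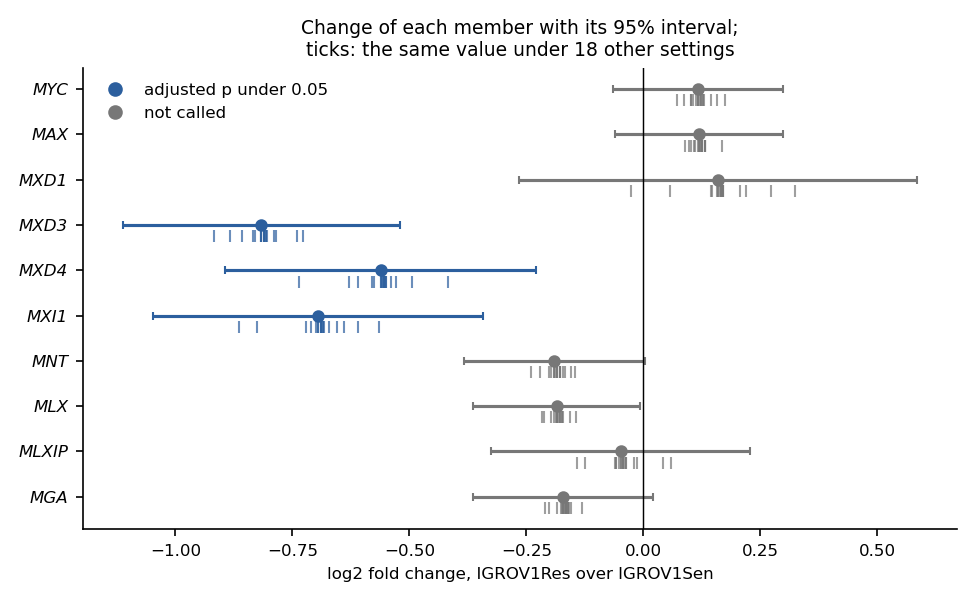
Log2 fold change of each member, IGROV1Res over IGROV1Sen (x axis), with its 95% interval from edgeR (bars), and the same value under 18 other settings (ticks). *MXD3*, *MXI1* and *MXD4* (blue, adjusted p under 0.05) lie between −0.82 and −0.56, and all other members (grey) lie between −0.19 and 0.16.

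*MNT*, the broadly expressed antagonist of MYC, had 43.7, 39.8 and 38.9 CPM in IGROV1Res replicates 1 to 3, against 47.2, 47.8 and 44.6 CPM in IGROV1Sen replicates 1 to 3. IGROV1Res libraries were all lower, by a small margin. For *MNT* the log2 fold change was −0.19 (SE 0.09, 95% interval −0.38 to 0.00, adjusted p = 0.116), which did not pass. Its neighbours on chromosome 17 were called in opposite directions: *SGSM2*, a regulator of RAB GTPases, fell (log2 fold change −0.96, adjusted p = 0.00268) and *METTL16*, an RNA methyltransferase gene, rose (log2 fold change 0.24, adjusted p = 0.0479), a call that was lost without either of IGROV1Sen replicates 2 and 3 or IGROV1Res replicates 1 and 2 (adjusted p up to 0.193).

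*MLX*, the partner of MLXIP, had 54.6, 49.7 and 52.4 CPM in IGROV1Res replicates 1 to 3, against 59.0, 57.4 and 61.8 CPM in IGROV1Sen replicates 1 to 3. Here too IGROV1Res libraries were all lower and the difference was small. *MLX* measured −0.19 on the log2 scale (SE 0.08, 95% interval −0.36 to −0.01) and did not pass the test (edgeR, adjusted p = 0.0988), although it is the member that counted as down at an unadjusted p under 0.05. *MLX* exons share 770 bases with *PSMC3IP* on the opposite strand, a recombination factor gene that was not called (0.32 on the log2 scale, adjusted p = 0.0779). *MLXIP*, which encodes the glucose-responsive partner, had 98.7, 89.2 and 74.1 CPM in IGROV1Res replicates 1 to 3, against 80.4, 101 and 89.2 CPM in IGROV1Sen replicates 1 to 3. The groups overlapped fully in *MLXIP* (log2 fold change −0.05, SE 0.12, 95% interval −0.33 to 0.23, adjusted p = 0.787).

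*MGA*, the largest protein of the network, had 36.3, 36.1 and 35.6 CPM in IGROV1Res replicates 1 to 3, against 38.2, 40.6 and 42.8 CPM in IGROV1Sen replicates 1 to 3. IGROV1Res libraries were all lower and lay very close together. *MGA* had a log2 fold change of −0.17 (SE 0.09, 95% interval −0.36 to 0.02, adjusted p = 0.148), near the chromosome 15 median of −0.16. Its neighbour *TYRO3*, a receptor tyrosine kinase gene, fell (14.5 ± 2.36 CPM in IGROV1Res and 31.6 ± 1.69 CPM in IGROV1Sen, log2 fold change −1.12, adjusted p = 0.000236).

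Per length of transcript, *MYC* was by far the most abundant member in both groups. Its level was 97.9 ± 2.74 CPM per kb of merged exons in IGROV1Res and 90.4 ± 6.35 CPM per kb in IGROV1Sen (SD, n = 3 each). In IGROV1Res the next levels were *MLX* (12.3), *MAX* (12.2) and *MXD4* (10.4 CPM per kb), whose ranges overlapped with the neighbour in the order, followed without overlap by *MLXIP* (6.28) and *MXI1* (5.73), which did overlap. Then came *MNT* (4.67), *MXD3* (3.16), *MXD1* (2.75) and *MGA* (2.04 CPM per kb), of which only *MXD3* and *MXD1* overlapped. In IGROV1Sen the order after *MYC* was *MXD4* (15.3) and *MLX* (14.0), which overlapped, *MAX* (11.2), and then *MXI1* (9.27), *MLXIP* (6.49), *MXD3* (5.56) and *MNT* (5.33), each overlapping with the next. The lowest levels in IGROV1Sen were again *MXD1* (2.46) and *MGA* (2.30 CPM per kb), which overlapped. These ranks depend on the length used: per kb of the longest transcript, a length added after the data were seen, *MXD4* (17.3) stood above *MAX* (17.1 CPM per kb) in IGROV1Res, and in IGROV1Sen *MXD3* (12.6) stood above *MXI1* (12.3 CPM per kb), each pair with overlapping ranges. By the longest transcript, *MNT* (8.16) also stood above *MXI1* (7.61 CPM per kb) in IGROV1Res, a pair whose ranges were separate by merged exons. In IGROV1Sen, *MXD3* likewise stood above *MLXIP* (10.7), and *MGA* (2.81) above *MXD1* (2.79 CPM per kb). *MYC* was highest by either length in both groups.

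**Figure D3:**
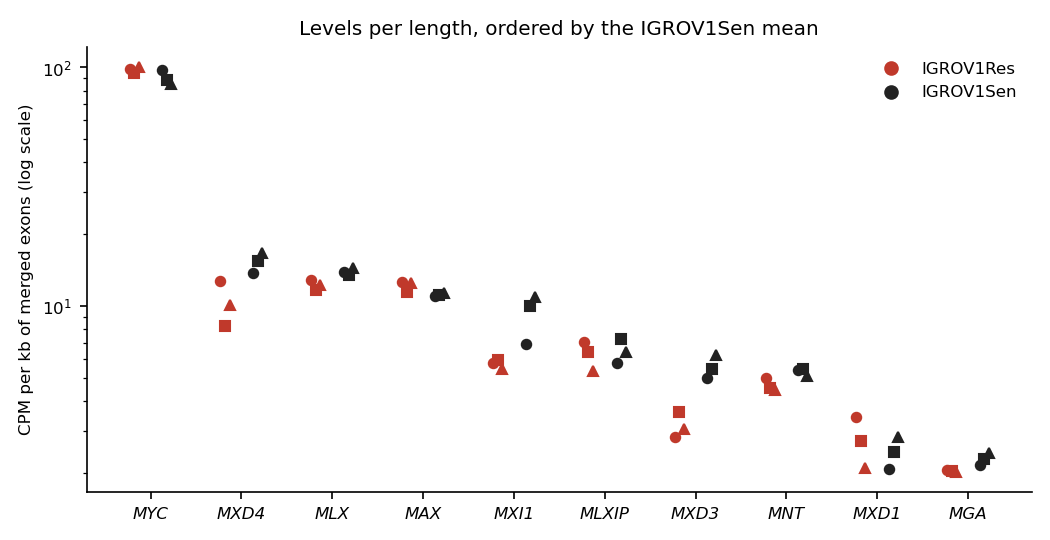
Level of each member in CPM per kb of merged exons, on a log axis, for IGROV1Res (red, left of each pair) and IGROV1Sen (black) replicates 1, 2 and 3 (circles, squares and triangles), ordered by the IGROV1Sen mean. *MYC* lies highest, with means of 97.9 CPM per kb in IGROV1Res and 90.4 CPM per kb in IGROV1Sen.

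The level of *MYC* relative to the summed MXD genes was higher in every IGROV1Res library. As CPM per kb of merged exons, *MYC* over the sum of *MXD1*, *MXD3*, *MXD4* and *MXI1* was 3.98, 4.61 and 4.85 in IGROV1Res replicates 1 to 3, against 3.50, 2.67 and 2.32 in IGROV1Sen replicates 1 to 3. IGROV1Sen replicate 1 was the nearest to the IGROV1Res libraries. The MXD sum itself was 24.8, 20.6 and 20.6 CPM per kb in IGROV1Res and 27.8, 33.3 and 36.7 CPM per kb in IGROV1Sen. With *MNT* added to the sum, the ratio was 3.31, 3.78 and 3.99 in IGROV1Res, against 2.93, 2.29 and 2.03 in IGROV1Sen. The ratio is given without a test because its parts are the genes tested above, and it depends on the exon length taken for each gene. *MXD4* made up 51.5%, 40.2% and 48.8% of the MXD sum in IGROV1Res and 49.6%, 46.3% and 45.6% in IGROV1Sen.

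**Figure D4:**
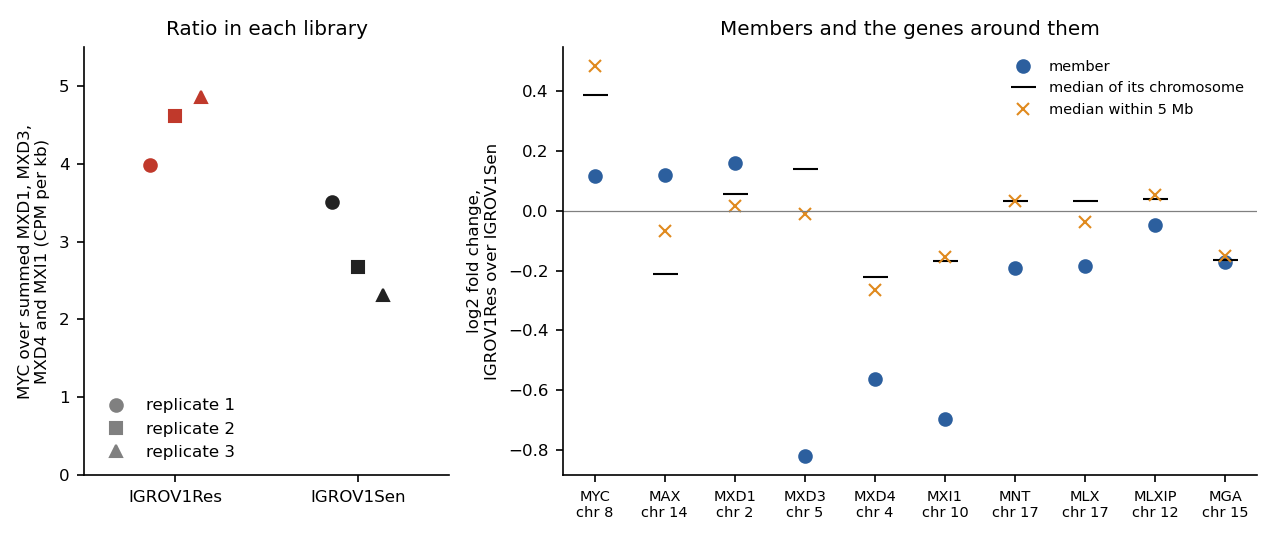
Left, ratio of *MYC* to the summed 4 MXD genes (CPM per kb of merged exons) in IGROV1Res (red) and IGROV1Sen (black) replicates, from 3.98 to 4.85 in IGROV1Res and from 2.32 to 3.50 in IGROV1Sen. Right, log2 fold change (IGROV1Res over IGROV1Sen) of each member (points), with the median of its chromosome (bars) and of the genes within 5 Mb (crosses), where *MYC* lies below both of its medians and *MXD3*, *MXI1* and *MXD4* lie below theirs.

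Other genes whose proteins bind E-boxes or work with the network, and genes known as its targets, were counted in 9 lists. These lists were drawn up with earlier results of these data known, and their counts are set beside the shares over all genes tested, 17.4% up and 18.3% down, with a median log2 fold change of −0.01. Among 12 E-box binding relatives that were not among the 10 members, 1 rose and 5 fell (41.7%), with a median of −0.42. The strongest fall was that of *MYCL*, a *MYC* paralog, with 7.09, 9.32 and 9.39 CPM in IGROV1Res replicates 1 to 3, against 23.6, 30.5 and 33.1 CPM in IGROV1Sen replicates 1 to 3 (log2 fold change −1.76, adjusted p = 6.30e-05). *MITF*, the melanocyte lineage factor, had 60.1, 57.1 and 51.9 CPM in IGROV1Res, against 139, 125 and 135 CPM in IGROV1Sen (log2 fold change −1.24, adjusted p = 9.98e-06). In both genes the groups were far apart and the difference was larger than in any of the 10 members. *USF1*, a ubiquitous E-box factor, also fell (log2 fold change −0.53, adjusted p = 0.00139), and *TFE3*, a factor of lysosomal genes, rose (131 CPM in IGROV1Res and 95.8 CPM in IGROV1Sen, log2 fold change 0.46, adjusted p = 0.00174). The remaining falls, named after their values were seen, were *SREBF1*, a factor of lipid synthesis (−0.52, adjusted p = 0.0144), and *TFAP4* (−0.37, adjusted p = 0.0185). *MYCN*, the other *MYC* paralog, was not called (−0.48 on the log2 scale, adjusted p = 0.138).

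Of 19 SIN3-HDAC corepressor genes, the machinery that the MXD and MNT proteins recruit, 0 rose and 8 fell (42.1%), with a median of −0.12. At an unadjusted p under 0.05, 1 rose and 8 fell, and without IGROV1Sen replicate 1 edgeR called 1 of them up. *SIN3A*, a scaffold that MXD proteins bind, had 47.7, 50.2 and 46.4 CPM in IGROV1Res replicates 1 to 3, against 70.0, 68.7 and 72.6 CPM in IGROV1Sen replicates 1 to 3 (log2 fold change −0.55, adjusted p = 0.000581). *RBBP4*, a histone chaperone, averaged 184 CPM in IGROV1Res and 275 CPM in IGROV1Sen (log2 fold change −0.58, adjusted p = 0.000384). The groups were well apart in both genes. *ING1*, a reader of histone methylation, fell as well (−0.38), whereas the deacetylases *HDAC1* (−0.03, adjusted p = 0.833) and *HDAC2* (−0.12, adjusted p = 0.291) were not called. The other SIN3 scaffold gene, *SIN3B*, named after its value was seen, averaged 99.9 CPM in IGROV1Res and 86.7 CPM in IGROV1Sen. It had overlapping groups and was not called (log2 fold change 0.20, edgeR adjusted p = 0.136). The count of 8 was 5 without IGROV1Sen replicate 2, IGROV1Sen replicate 3 or IGROV1Res replicate 2.

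Of 24 genes of MYC coactivators and other partners bound by MYC, 2 rose and 5 fell (20.8%), close to the share over all genes, with a median of −0.10. *BPTF*, a chromatin remodeller subunit, averaged 85.5 ± 3.82 CPM in IGROV1Res and 128 ± 6.55 CPM in IGROV1Sen (log2 fold change −0.58, adjusted p = 0.0005), and *ZBTB17*, the partner through which MYC represses genes, fell too (25.6 ± 4.31 CPM in IGROV1Res and 36.8 ± 2.55 CPM in IGROV1Sen, adjusted p = 0.0116). *CTR9* and *RTF1*, which act together in transcript elongation, were called in opposite directions, up for *CTR9* (adjusted p = 0.00313) and down for *RTF1* (adjusted p = 0.00147). The acetyltransferase gene *KAT2A* rose (245 ± 24.0 CPM in IGROV1Res and 191 ± 20.8 CPM in IGROV1Sen, adjusted p = 0.0275). The call of *KAT2A* was lost without IGROV1Sen replicate 3 or IGROV1Res replicate 1 or 2 (adjusted p up to 0.0817), and that of *ZBTB17* without IGROV1Sen replicate 3 or IGROV1Res replicate 2 (adjusted p up to 0.0537). The falls numbered 3 without IGROV1Sen replicate 2, and 2 without IGROV1Sen replicate 3 or IGROV1Res replicate 2.

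Of 21 tested genes that control MYC protein turnover, 2 rose and 2 fell, with a median of 0.08. *GSK3B*, a kinase that marks MYC for destruction, had 75.5, 79.0 and 75.6 CPM in IGROV1Res replicates 1 to 3, against 106, 103 and 106 CPM in IGROV1Sen replicates 1 to 3 (log2 fold change −0.45, adjusted p = 0.0012). The groups were far apart relative to their spread. *USP36*, a deubiquitinase, rose (0.23, adjusted p = 0.0444), and *USP28*, another deubiquitinase, fell (−0.24, adjusted p = 0.045). Without IGROV1Sen replicate 1, 6 of these genes rose, and without IGROV1Sen replicate 2, IGROV1Sen replicate 3 or IGROV1Res replicate 2, neither *USP36* nor *USP28* was called in edgeR (adjusted p from 0.068 to 0.193). Both calls were also lost without IGROV1Res replicate 1 or 3. In all, the call of *USP28* was lost under 12 of the 18 other settings, with DESeq2 and the fit without a composition factor among them. That of *USP36* was lost under 7.

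Of 13 subunits of the Polycomb complex that holds MGA and MAX, 1 rose and 1 fell. The chromodomain gene *CBX1* fell (154 ± 6.82 CPM in IGROV1Res and 224 ± 9.44 CPM in IGROV1Sen, log2 fold change −0.54, adjusted p = 0.000616), and *PCGF6*, the subunit that defines the complex, rose (15.9 ± 1.71 CPM in IGROV1Res and 11.3 ± 1.61 CPM in IGROV1Sen, log2 fold change 0.49, adjusted p = 0.0285). The call of *PCGF6* was lost without replicate 2 or 3 of either group (adjusted p up to 0.12). Of 11 germline genes that this complex is known to silence, 1 was in the table, *STAG3*, and it was not called (log2 fold change −0.85, adjusted p = 0.174), but edgeR called it down without IGROV1Sen replicate 1 and without IGROV1Res replicate 1.

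Of 4 targets of MLXIP and MLX, 2 rose and 1 fell. *ARRDC4*, an arrestin-domain gene, rose (12.1, 15.3 and 14.3 CPM in IGROV1Res, against 6.21, 4.03 and 4.06 CPM in IGROV1Sen, log2 fold change 1.55, adjusted p = 0.000387). Its relative *ARRDC3* fell (33.2, 49.6 and 30.5 CPM in IGROV1Res, against 45.4, 80.6 and 88.5 CPM in IGROV1Sen, log2 fold change −0.92, adjusted p = 0.0185), although IGROV1Res replicate 2 lay above IGROV1Sen replicate 1. *KLF10*, a chromosome 8 gene, rose (log2 fold change 0.59, adjusted p = 0.0298). The call of *ARRDC3* was lost without IGROV1Sen replicate 2 or 3 or IGROV1Res replicate 1 or 3 (adjusted p up to 0.0654), and that of *KLF10* without IGROV1Sen replicate 2 or 3 or IGROV1Res replicate 1 or 2 (adjusted p up to 0.115). *TXNIP*, the most used readout of MLXIP activity, named after its value was seen, had a log2 fold change of 0.04 and was not called (adjusted p = 0.871).

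Of 62 tested genes known to be activated by MYC, 17 rose (27.4%) and 8 fell (12.9%), with a median of 0.09. *SLC1A5*, a glutamine transporter, had 269, 297 and 318 CPM in IGROV1Res replicates 1 to 3, against 200, 159 and 159 CPM in IGROV1Sen replicates 1 to 3 (log2 fold change 0.77, adjusted p = 0.000666). *CCND2*, a D-type cyclin, was low in both groups and rose, with 33, 38 and 37 counts in IGROV1Res, against 5, 10 and 9 counts in IGROV1Sen (log2 fold change 2.15, adjusted p = 0.000487). *BOP1*, a ribosome assembly gene on chromosome 8, rose as well (0.70, adjusted p = 0.0013). In these 3 genes IGROV1Res was higher in every library. *E2F2*, a cell cycle factor, fell (29.3, 31.9 and 32.4 CPM in IGROV1Res, against 63.0, 57.2 and 57.9 CPM in IGROV1Sen, log2 fold change −0.93, adjusted p = 6.03e-05), as did the nucleolar gene *FBL* (485 ± 50.9 CPM in IGROV1Res and 696 ± 29.3 CPM in IGROV1Sen, adjusted p = 0.00272). The list holds 3 genes of chromosome 8, of which 2 were among the 17 that rose. The 17 became 26 without IGROV1Sen replicate 1, 11 without IGROV1Sen replicate 2 and 9 without IGROV1Sen replicate 3. The 8 that fell became 4 without IGROV1Sen replicate 2 or IGROV1Res replicate 2, and 5 without IGROV1Sen replicate 3 or IGROV1Res replicate 1. Without both libraries of low mitochondrial share 25 rose.

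Of 25 tested genes known to be repressed by MYC, 7 rose and 7 fell (28.0% each), with a median of 0.05. *CDKN1A*, an inhibitor of cyclin-dependent kinases, had 395, 295 and 325 CPM in IGROV1Res replicates 1 to 3, against 188, 191 and 191 CPM in IGROV1Sen replicates 1 to 3 (log2 fold change 0.83, adjusted p = 0.00041). *CDKN2C*, another such inhibitor, fell (10.3 ± 1.10 CPM in IGROV1Res and 21.4 ± 1.11 CPM in IGROV1Sen, log2 fold change −1.05, adjusted p = 0.000244). These kinase inhibitors were thus called in opposite directions. On chromosome 8, *CLU*, a secreted chaperone, rose (495 ± 50.2 CPM in IGROV1Res and 251 ± 21.9 CPM in IGROV1Sen, log2 fold change 0.98, adjusted p = 0.00011), while *CEBPD*, a differentiation factor, fell (14.6 ± 1.10 CPM in IGROV1Res and 47.0 ± 12.2 CPM in IGROV1Sen, log2 fold change −1.69, adjusted p = 0.000164).

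**Figure D5:**
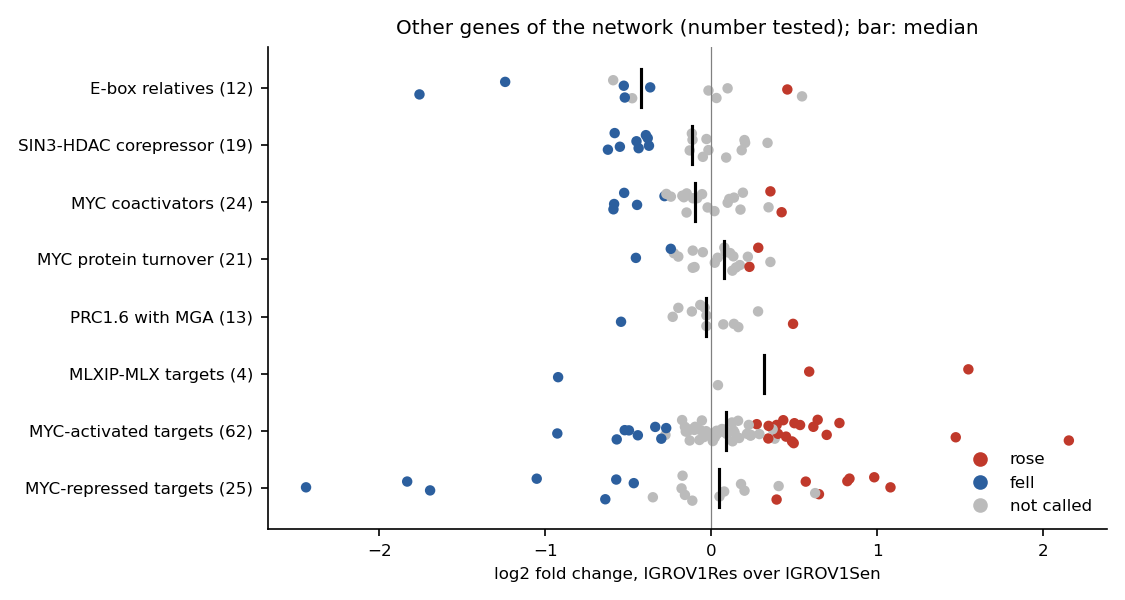
Log2 fold change, IGROV1Res over IGROV1Sen, of every tested gene in 8 lists (the number tested stands in parentheses, and the bar is the median), with genes that rose in red, fell in blue and were not called in grey. E-box relatives have the lowest median (−0.42), and the activated and repressed targets of MYC have genes on both sides of 0.

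By the pattern of log2 CPM over the 6 libraries, the genes most like *MYC* among 9298 genes with a mean of at least 10 CPM were *DDIAS* (Pearson r 0.996), *SLC35A4* (0.995), *CDC37* (0.991), *DNAJC7* (0.986) and *TGFBRAP1* (0.986). The 6 points share depth and group, and the coefficients are given as a description without a test. None of these 5 genes was called by edgeR in the main fit (adjusted p from 0.0982 to 0.345), and none lies on chromosome 8. They were picked for their likeness to *MYC*, itself not called, so their lack of calls is no separate result. Without IGROV1Sen replicate 1, edgeR called *DDIAS*, *SLC35A4* and *TGFBRAP1* up.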

How the data were processed

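RNA of 3 IGROV1Res and 3 IGROV1Sen libraries was sequenced by the authors, who deposited raw counts per Ensembl gene. The labels' processing notes name hg18 and edgeR; the aligner, the counter and the use of strand are not given in the sources used here. A deposited fold-change table holds the authors' log2 fold changes, log CPM, likelihood ratios, p-values and FDR, which were not used; only its gene symbols were. Positions, exon lengths and further symbols came from GENCODE 29 (GRCh38).

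Genes with too few counts were removed (filterByExpr, minimum 10 counts and 15 in total), and the rest were scaled by TMM and tested with edgeR 4.0.16 in R 4.3.3 (glmQLFit, glmQLFTest), with p-values adjusted over all genes. The fit was tested on simulated data with changes larger than any measured in the members, and smaller changes were not simulated. CPM are TMM-normalized; levels between genes are CPM per kb of merged exons. Alternatives were the likelihood ratio test, DESeq2 1.42.0, other scalings and filters, a replicate block, leaving out or summing libraries, leaving out mitochondrial or chromosome 8 genes, and a threshold of 0.01. Named genes were the members, their nearest tested neighbours, up to 4 called genes per list by adjusted p plus up to 2 of the rarer direction, and the 5 genes most like *MYC*. The members and lists were chosen with earlier results of these data known. Some genes that this rule names are not reported here.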

Additional observations from a re-analysis of the deposited data

How the results depend on the processing

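Of 190 values of the members under other settings, 184 kept their direction and their side of the threshold. The call of *MXD4* was lost at an adjusted p under 0.01 (log2 fold change −0.56, adjusted p = 0.0158), and leaving out 1 library moved its log2 fold change between −0.74 and −0.42, with the call lost without IGROV1Sen replicate 3 or IGROV1Res replicate 2. Neither *MLXIP* nor *MXD1*, both uncalled, kept its sign: *MLXIP* was 0.041 without IGROV1Sen replicate 2 and 0.059 without IGROV1Res replicate 3 (range −0.14 to 0.059), and *MXD1* was −0.027 without IGROV1Res replicate 1 (range −0.027 to 0.32). The cause was not tested. Over all genes, 2394 rose and 2530 fell; at an adjusted p under 0.01, 1373 rose and 1584 fell, and leaving out 1 library gave 1538 to 3023 up and 1814 to 2992 down. The median of all genes shifted by less than 0.1 between scalings.

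Same-numbered libraries did not deviate together (correlations −0.45, 0.10 and −0.44). IGROV1Res replicate 3 and IGROV1Sen replicate 1, both of low mitochondrial share, did (0.58). With 3 libraries a group, these values cannot decide whether the numbers pair the samples. With the replicate number as a block, 1530 genes rose, while *MXD3* (−0.82, adjusted p = 0.00845), *MXI1* (−0.67, adjusted p = 0.0282) and *MXD4* (−0.58, adjusted p = 0.0466) stayed below the threshold of 0.05, and no call of a member changed. Of 999 values of 56 other named genes, 921 kept their direction and call, 67 lost the call, 10 gained it, and 1 turned direction, *HAUS3*, a neighbour of *MXD4* that was not called (0.0031 without IGROV1Sen replicate 3, range −0.13 to 0.0031 over the libraries left out). Of 342 list counts, 79 moved by more than 1.5 times. With 3 libraries a group, differences smaller than those called among the members could be missed, and so could some of similar size. For example, *MLXIPL*, an E-box relative, was not called at a log2 fold change of −0.59 (edgeR adjusted p = 0.151).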
